A study of Mus musculus with 4 samples.

Results

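The Eph receptors *Ephb2*, *Ephb3*, *Ephb4* and *Ephb6* and the ephrin ligands *Efnb1*, *Efnb2* and *Efna1* were followed in the crypt epithelium of mice without *Slc7a5* in the intestine. These 7 genes were taken by symbol from the 27998 genes of each library. No cut on a measured value chose them, but earlier results of these data were known. Their transcripts were counted in 4 single-cell libraries, of which 2 carry the genotype Slc7a5 fl/fl and the other 2 Slc7a5 IEC-KO, and summed in Paneth, cycling, goblet and enterocyte cells. All libraries came from enriched crypts of the small intestine of 8-week-old mice, sorted as live EpCAM+ CD45- cells and prepared with the 3′ v2 chemistry of 10x Genomics. Every mouse carried the floxed *Slc7a5* allele, whose first exon is flanked by loxP sites, and the IEC-KO mice also carried Cre driven by the villin promoter, which is active in the intestinal epithelium. Controls were fl/fl littermates, matched for sex and age, by the study's methods. *Slc7a5* encodes an amino acid transporter of the cell membrane. The labels name 4 mice without giving their split over the libraries, so p-values measure the spread between libraries, which may be technical.

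Eph receptors are receptor tyrosine kinases, and their ephrin ligands are also bound to the cell membrane, so that both signal on contact between neighbouring cells. In the intestinal crypt, Wnt signalling through TCF4 and β-catenin keeps EphB2 and EphB3 high near the crypt base, while ephrin-B1 and ephrin-B2 are highest towards the villus. Repulsion between receptor-bearing and ligand-bearing cells holds cells at their level, and EphB3 is known for keeping Paneth cells at the crypt base. EphB4 is a receptor for ephrin-B2, EphB6 lacks kinase activity, and ephrin-A1, held by a lipid anchor, binds mainly the EphA receptors.

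The promoter bases of the 2 crypt-base receptors are shown because these genes are the pair compared throughout. *Ephb3* lies on the plus strand of chromosome 16 (GRCm38, 21204755 to 21223305, 16 exons) and *Ephb2* on the minus strand of chromosome 4 (136647539 to 136835988, 16 exons). The lines give bases of the RefSeq promoters that lie upstream of the gene positions above. They cover chr16:21204545-21204754 on the plus strand and chr4:136836013-136836262 on the minus strand, and capitals mark the E-box letters CAGCTG.
Ephb3: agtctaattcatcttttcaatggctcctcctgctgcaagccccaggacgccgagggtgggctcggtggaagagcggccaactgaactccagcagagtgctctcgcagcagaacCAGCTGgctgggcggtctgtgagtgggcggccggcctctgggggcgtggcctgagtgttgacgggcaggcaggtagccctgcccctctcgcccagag
Ephb2: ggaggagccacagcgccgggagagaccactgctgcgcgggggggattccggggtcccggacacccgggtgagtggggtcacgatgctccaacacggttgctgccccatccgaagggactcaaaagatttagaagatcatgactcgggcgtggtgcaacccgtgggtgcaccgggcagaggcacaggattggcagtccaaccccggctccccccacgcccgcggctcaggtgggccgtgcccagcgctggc
RefSeq promoters of 300 bases around the start were found for all 7 members. The E-box letters occurred in 16.3% of the 32851 mouse promoters of that length, and among the members only in that of *Ephb3*. Letters bound by TCF factors (CTTTGAA or CTTTGAT, and likewise CTTTGTT or CTTTGTA, searched on both strands) occurred in 16.9% of all promoters, letters of CDX factors (TTTATG or TTTATT) in 27.6%, and neither in a member's window. G and C made up 59.7% to 76.3% of the members' windows, against a median of 52.7%. The other members lie on chromosome 5 (*Ephb4*), 6 (*Ephb6*), X (*Efnb1*), 8 (*Efnb2*) and 3 (*Efna1*).

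The libraries held 3633 and 3217 cells labelled fl/fl and 10004 and 9644 labelled IEC-KO, with 87922473 to 127094508 UMIs (unique molecules counted) each. The fl/fl cells were deeper, with medians of 22242 and 32549 UMIs against 6699.5 and 9717.5. Symbols of the alpha-defensins (Defa), the antimicrobial peptides of Paneth cells, took 35.6% and 39.1% of fl/fl UMIs and 19.9% and 22.2% of IEC-KO UMIs. Paneth cells, defined by 30% or more Defa UMIs, numbered 2020, 1950, 2019 and 2336 in fl/fl 1, fl/fl 2, IEC-KO 1 and IEC-KO 2. Among cells under 20%, 471, 373, 863 and 819 were cycling, 773, 603, 5035 and 4612 goblet and 114, 94, 285 and 222 enterocyte cells by their markers. The marker limits were set after the values were seen. Of the cycling cells 305, 234, 592 and 593, most of those in each library, also reached the goblet limit of 160 marker UMIs. In the IEC-KO libraries 810 and 825 Paneth cells lay within 5 percentage points above the limit, against 115 and 82 in the fl/fl libraries. *Lyz1*, the Paneth lysozyme, fell in the Paneth cells labelled IEC-KO (log2 fold change −1.69, SE 0.173, adjusted p = 7.08e-08, edgeR). *Slc7a5* itself was at 1.16, 1.04, 3.41 and 3.74 CPM (UMIs in 1000000, TMM scaled within Paneth cells), but 3′ tags lie outside the deleted exon and do not check the genotype, so every direction below rests on the labels. Immune, endothelial and stromal markers summed to at most 1.57, 1.11 and 0.863 CPM in any class.

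Levels of the members differed between classes, with overlap between some of the classes. Levels are given as CPM of the UMIs of a class in a library, scaled by TMM over the 16 sums of class and library, and they are compared between classes for each gene, not between genes. Since Defa transcripts fill much of a Paneth cell's RNA, scaling by library size alone moved the median gene by −1.77 on the log2 scale in Paneth against cycling cells, by −0.40 in goblet and by −0.16 in enterocyte cells. Differences of Paneth cells are therefore relative to the other genes of the class. The plot of member levels by class shows every library.

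**Figure D1:**
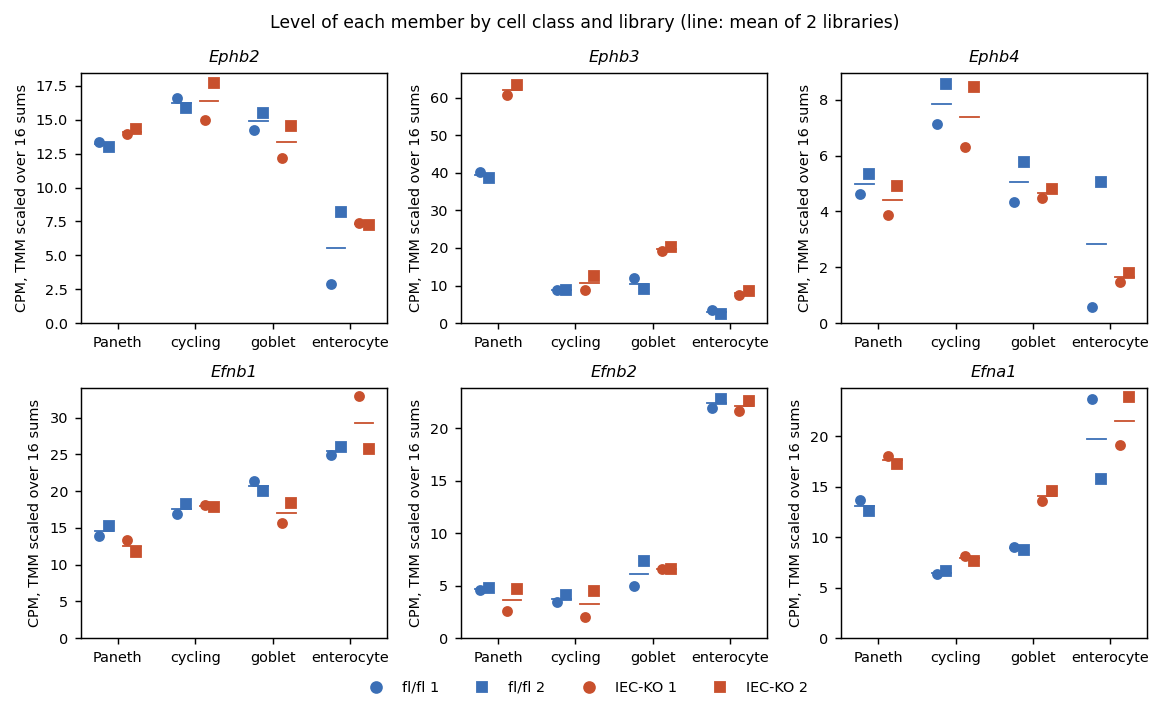
Levels of the members (CPM, TMM scaled over 16 sums, linear axis from 0) in Paneth, cycling, goblet and enterocyte cells, with 1 point for each library and a line at the mean of the 2 libraries. *Ephb3* lies at 38.6 to 63.4 in Paneth cells and at or below 20.2 in the other classes, whereas *Efnb2* lies at 21.6 to 22.8 in enterocytes and at or below 7.33 elsewhere.

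*Ephb3* was highest in Paneth cells. Its level was 40.2, 38.6, 60.6 and 63.4 CPM in Paneth cells of fl/fl 1, fl/fl 2, IEC-KO 1 and IEC-KO 2, from 1420, 1392, 1015 and 1913 UMIs. It was 8.76, 8.82, 8.92 and 12.5 CPM in cycling cells and 3.47, 2.53, 7.38 and 8.57 CPM in enterocytes. Every Paneth library lay above every other sum. Paneth cells were 5.23-fold above cycling cells (log2 2.39, SE 0.0625, adjusted p = 6.26e-38), and the gene stayed higher by 0.62 under scaling by library size. Goblet cells, at 11.9, 9.14, 19.1 and 20.2 CPM, were 1.49-fold above cycling cells (log2 0.57, SE 0.0916, adjusted p = 2.81e-07), a call lost by library size (0.18, adjusted p = 0.0941). Enterocytes were below cycling cells (log2 −0.98, adjusted p = 0.000252), but not beyond the threshold when only cycling cells low in goblet markers were taken, an alternative chosen after seeing the data (−0.54, adjusted p = 0.102). In all, 5 of 6 tested members differed between Paneth and cycling cells, where 70.1% of all tested genes did, 5 of 6 between goblet and cycling cells (59.4% of all), and 6 of 6 between enterocytes and cycling cells (61.3% of all).

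*Ephb2* was spread more evenly. Cycling cells held 16.6, 15.9, 15.01 and 17.7 CPM, goblet cells 14.2, 15.5, 12.2 and 14.6, and Paneth cells 13.4, 13.0, 13.9 and 14.3. Goblet values overlapped those of both other classes, while Paneth and cycling values did not overlap. The Paneth level was lower than the cycling level by little (log2 −0.22, SE 0.0763, adjusted p = 0.0105), which turned to 0.10 (adjusted p = 0.613) when cells were thinned to equal depth and was −0.16 (adjusted p = 0.19) without IEC-KO 2. Goblet cells were also lower (−0.20, adjusted p = 0.0317), which did not hold without fl/fl 1 (−0.17, adjusted p = 0.166), without IEC-KO 1 or without IEC-KO 2. Enterocytes held 2.89, 8.23, 7.38 and 7.22 CPM, below every sum of the other classes (log2 −1.36 against cycling cells, adjusted p = 1.86e-08).

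*Ephb4* was highest in cycling cells, at 7.15, 8.55, 6.32 and 8.46 CPM. Paneth cells held 4.62, 5.33, 3.88 and 4.91 CPM (log2 −0.65 against cycling cells, adjusted p = 2.27e-06), goblet cells 4.35, 5.77, 4.47 and 4.82 (−0.65, adjusted p = 1.56e-05). Paneth and goblet levels overlapped each other and lay below the cycling levels. In enterocytes the level was 0.578, 5.06, 1.48 and 1.81 CPM (−1.84 against cycling cells, adjusted p = 1.43e-06). *Ephb6* was met in 2 UMIs among the 26498 cells, 1 in a cycling cell of fl/fl 2 and 1 in a Paneth cell of IEC-KO 2, so it entered no test.

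The ligands were highest in enterocytes. *Efnb2* was at 22.0, 22.8, 21.6 and 22.6 CPM there, and at 3.46, 4.07, 2.03 and 4.49 CPM in cycling cells. The enterocyte level was 6.28-fold higher (log2 2.65, adjusted p = 1.49e-17), and every enterocyte library lay above every other sum. Goblet cells held 4.95, 7.33, 6.63 and 6.56 CPM and were 1.78-fold above cycling cells (log2 0.83, SE 0.163, adjusted p = 1.45e-05). Paneth cells, at 4.56, 4.80, 2.57 and 4.64 CPM, overlapped cycling cells and did not differ from them beyond the threshold (log2 0.29, SE 0.161, adjusted p = 0.103), with the sign turning under library size (−1.48).

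*Efnb1* ranged less between classes. Enterocytes held 24.9, 25.9, 33.0 and 25.7 CPM and were 1.55-fold above cycling cells, which held 17.0, 18.2, 18.2 and 17.9 (log2 0.63, adjusted p = 2.55e-05). In goblet cells the level was 21.3, 20.1, 15.6 and 18.4 CPM, on both sides of the cycling values (log2 0.10, SE 0.0784, adjusted p = 0.297, but −0.30 under library size). The lowest levels were in Paneth cells, at 14.0, 15.2, 13.3 and 11.7 CPM (log2 −0.36 against cycling cells, SE 0.0773, adjusted p = 5.5e-05).

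*Efna1* had 2 high classes. Enterocytes held 23.7, 15.8, 19.2 and 23.9 CPM and Paneth cells 13.7, 12.6, 18.1 and 17.3, and these ranges overlapped. Cycling cells were lowest, at 6.34, 6.65, 8.13 and 7.68 CPM. Against them enterocytes were 2.93-fold higher (log2 1.55, adjusted p = 5.22e-13), goblet cells 1.58-fold higher (log2 0.66, adjusted p = 3.71e-07) and Paneth cells 2.20-fold higher (log2 1.14, adjusted p = 9.92e-17), the last of which turned to −0.63 under library size.

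The comparison of genotypes asked whether loss of the transporter was accompanied by other levels of these positioning genes. In Paneth cells *Ephb3* and *Efna1* rose and *Efnb1* fell in the libraries labelled IEC-KO, the last only by a narrow margin. These are 3 of the 6 tested members, where 39.9% of 12492 tested genes changed (20.1% up, 19.8% down). Under library size the median of all genes moved by 0.62 on the log2 scale, so that changes in Paneth cells too are relative to the other genes. The plot of genotype changes gives both scalings.

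*Ephb3* rose 1.58-fold in Paneth cells (log2 0.66, SE 0.0685, adjusted p = 9.6e-08, edgeR quasi-likelihood test with Benjamini-Hochberg adjustment). Both IEC-KO libraries, at 60.6 and 63.4 CPM, lay above both fl/fl libraries, at 40.2 and 38.6. The rise was 1.27 under library size, 0.34 (adjusted p = 0.0282) with all cells thinned to 3843 UMIs, and between 0.62 and 0.69 without any single library. It was 0.70 (adjusted p = 1.17e-07) among cells with 40% or more Defa UMIs. Among UMIs outside the Defa genes, without TMM scaling, *Ephb3* was at 25.6, 24.04, 52.2 and 57.0 CPM. Unlike the scaled levels, these values are not relative to the other genes of the class. The size of the *Ephb3* difference on this scale varied with Defa content. In cells with 30% to 35% Defa UMIs the genotypes were closer, at 47.1, 42.2, 52.2 and 59.9 CPM. At 35% to 40% the levels were 25.9, 24.4, 50.5 and 58.4, and at 40% to 45% they were 24.7, 23.9, 55.9 and 49.9. Such variation was not particular to *Ephb3*. On the same scale *Ephb2* was at 14.8, 12.1, 10.0 and 13.0 CPM at 30% to 35%. At 40% to 45% it was at 8.39, 7.86, 15.1 and 11.7.

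*Efna1* rose 1.34-fold in the same cells (log2 0.42, SE 0.0886, adjusted p = 0.000625), again without overlap of the libraries, but not beyond the threshold at equal depth (0.14, adjusted p = 0.675). *Efnb1* fell by 0.24 on the log2 scale (SE 0.0957, adjusted p = 0.0489), to 13.3 and 11.7 CPM from 14.0 and 15.2, and the direction turned under library size (0.38). The call was lost without fl/fl 2 (−0.18, adjusted p = 0.262), without IEC-KO 2 (−0.13, adjusted p = 0.456) and in 7 other settings. *Efnb1* lies on the X chromosome, and *Xist*, the RNA of the inactive X, was at 41.8, 45.8, 202 and 238 CPM in Paneth cells, with 4 Y-linked genes at 8.77, 8.62, 4.68 and 4.17 CPM. Both were present in every library and were at like levels within a genotype in these cells, so libraries of a genotype may share mice. In the other classes too *Xist* was higher and the Y-linked genes lower in both IEC-KO libraries. Cycling cells held *Xist* at 437, 487, 947 and 1059 CPM and the Y-linked genes at 38.1, 38.2, 12.7 and 12.1. A difference in the sex mix of the libraries would run with the genotype in every comparison here, those of *Ephb3* and *Efna1* included. Its part was not tested.

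The other receptors did not pass. *Ephb2* had a log2 fold change of 0.10 (SE 0.0889, adjusted p = 0.397) and *Ephb4* one of −0.14 (SE 0.154, adjusted p = 0.489), which became 0.72 and 0.48 under library size. *Efnb2* was at −0.29 (SE 0.185, adjusted p = 0.229), and IEC-KO 1 alone stood low at 2.57 CPM: without IEC-KO 2 the value was −0.86 (adjusted p = 0.00208).

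**Figure D2:**
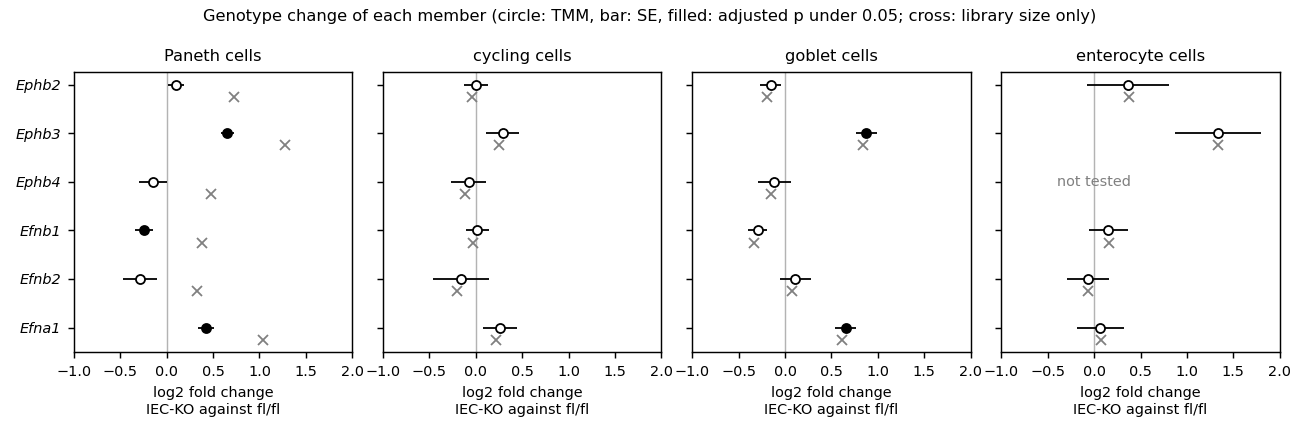
Log2 fold change of each tested member, IEC-KO against fl/fl, in 4 panels by cell class. Circles show the TMM estimate with its SE as a bar, filled where the adjusted p was under 0.05, and crosses the estimate by library size alone. *Ephb3* is filled in Paneth (0.66) and goblet cells (0.88). In Paneth cells the crosses of *Efnb1* (0.38), *Ephb4* (0.48) and *Efnb2* stand on the other side of 0 from their circles.

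Goblet cells showed the same 2 rises. *Ephb3* went from 11.9 and 9.14 CPM to 19.1 and 20.2, a 1.84-fold rise (log2 0.88, SE 0.115, adjusted p = 3.56e-05). *Efna1* went from 8.99 and 8.78 CPM to 13.6 and 14.5, a 1.57-fold rise (log2 0.65, SE 0.115, adjusted p = 0.000587). In neither gene did the genotypes overlap. That made 2 of 6 tested members, where 20.6% of 11593 genes changed and 11.1% rose. *Efnb1* was just outside the threshold (−0.29, SE 0.103, adjusted p = 0.0523) and inside it in 9 of the alternatives, with −0.34 (adjusted p = 0.0446) without fl/fl 2 and −0.42 (adjusted p = 0.0116) without IEC-KO 2. *Ephb2* (−0.16, adjusted p = 0.39), *Ephb4* (−0.12, adjusted p = 0.711) and *Efnb2* (0.11, adjusted p = 0.707) did not pass.

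Defa UMIs were present in the goblet class. There 120 of 773, 122 of 603, 1039 of 5035 and 1024 of 4612 cells held 10% to 20% Defa UMIs. Whether these cells made Defa RNA themselves was not tested. Were all Defa UMIs of the goblet class carried over from Paneth cells with *Ephb3* at the Paneth ratio, part of its *Ephb3* UMIs would come with them. That part would be 17.6%, 22.1%, 28.7% and 31.2%. Less that part, the level scaled within goblet cells was 11.1, 8.03, 15.5 and 15.7 CPM, still without overlap. That ratio is the mean of the class, and Paneth cells near the limit held more. *Ephb3* was at 31.6, 28.3, 35.2 and 40.4 CPM of all UMIs in Paneth cells with 30% to 35% Defa UMIs. At 40% to 45% it was at 14.2, 13.7, 32.5 and 29.0. More could thus be carried over than was taken off, which was not tested. In goblet cells under 10% Defa UMIs the rise was 0.91 (adjusted p = 0.000347), and it was 0.81 with likely doublets left out.

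Cycling cells showed no member past the threshold (0 of 6 by edgeR's quasi-likelihood test, where 5.03% of 10395 genes changed). There were also 0 at an unadjusted p under 0.05, against 17.2% of genes, and 0 by DESeq2, against 0.925%. *Ephb3* was at 8.76 and 8.82 CPM against 8.92 and 12.5 (log2 0.29, SE 0.174, adjusted p = 0.427) and *Efna1* had a log2 fold change of 0.26 (SE 0.186, adjusted p = 0.52). *Ephb2* (−0.00, SE 0.129) and *Efnb1* (0.02, SE 0.121) had estimates near 0. In enterocytes, the smallest class, 0 of 5 tested members passed in edgeR, where 1.6% of 7013 genes changed, and 0 in DESeq2, against 0.328%. *Ephb3* there was met in 6, 4, 15 and 19 UMIs (log2 1.33, SE 0.463, adjusted p = 0.219 in edgeR). It was the 1 member of 5 under 0.05 before adjustment, as were 10.9% of genes.

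Whether the genotype change differed between classes was tested in 1 model over the 16 sums. No member passed (0 of 6 in each contrast by edgeR), where 20.4% of genes did for Paneth against cycling cells, 12.9% for Paneth against goblet cells and 10.1% for Paneth against enterocytes. The *Ephb3* change in Paneth cells differed from that in cycling cells by 0.35 (SE 0.159, adjusted p = 0.11, edgeR). It differed from that in goblet cells by −0.24 (SE 0.114, adjusted p = 0.182, edgeR), which turned to 0.43 under library size. Both were under 0.05 before adjustment, as was no other member in the 3 contrasts. Of all genes 31.2%, 24.3% and 19.9% were under 0.05 before adjustment against cycling cells, goblet cells and enterocytes. Without IEC-KO 2 the difference from cycling cells passed (0.62, adjusted p = 0.0336), as did the *Efnb2* difference between Paneth and goblet cells (−0.99, adjusted p = 0.016).

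Ratios between members need no scaling. They compare libraries for 1 pair of genes and are not a count of molecules, since genes can be captured unequally. *Ephb3* made up 75.1% and 74.8% of the *Ephb2* and *Ephb3* UMIs of fl/fl Paneth cells and 81.3% and 81.6% in IEC-KO. In goblet cells the shares were 45.6%, 37.1%, 61.1% and 58.1%. Cycling cells held 34.5%, 35.7%, 37.3% and 41.4%, and enterocytes between 23.5% and 54.5% on few UMIs. In Paneth, goblet and cycling cells both IEC-KO shares lay above both fl/fl shares, by little in cycling cells, while enterocytes overlapped. The order in cycling cells did not hold among those low in goblet markers (33.3%, 32.8%, 21.8% and 32.6%, a split chosen after seeing the data). Nor did it hold less the UMIs that Paneth RNA would carry over, defined above for goblet cells with the same limit (31.96%, 33.3%, 31.5% and 35.9%). The goblet shares less those UMIs did not overlap (42.02%, 32.4%, 55.5% and 51.4%). An exact permutation test over 2 against 2 libraries cannot go below p = 0.333, so a lack of overlap alone is not a call. How many other gene pairs separate in this way was not counted. The same holds for the shares below.

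Paneth cells near the Defa limit were mostly IEC-KO, so the share was taken again at like Defa content. It was 76.2%, 77.6%, 83.9% and 82.2% in Paneth cells with 30% to 35% Defa UMIs. At 35% to 40% it was 75.9%, 76.5%, 80.4% and 81.4%, and at 40% to 45% it was 74.6%, 75.3%, 78.8% and 81.0%. In each range both IEC-KO libraries lay above both fl/fl libraries.

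The receptors *Ephb2* and *Ephb3* together took 74.3% and 72.0% of the UMIs of those 2 receptors and the ligands *Efnb1* and *Efnb2* in fl/fl Paneth cells, and 82.4% and 82.7% in IEC-KO. Goblet cells were at 49.9%, 47.3%, 58.5% and 58.2%, also without overlap. Cycling cells were at 55.4%, 52.6%, 54.2% and 57.5%, with overlap. Enterocytes were at 11.96%, 18.1%, 21.3% and 24.6%, also without overlap, but on only 11, 17, 30 and 35 receptor UMIs. They were the class with the smallest receptor share in every library. *Efnb2* made up 46.9%, 46.8%, 39.6% and 46.7% of the *Efnb1* and *Efnb2* UMIs of enterocytes and 24.6%, 23.96%, 16.2% and 28.5% of those of Paneth cells.

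**Figure D3:**
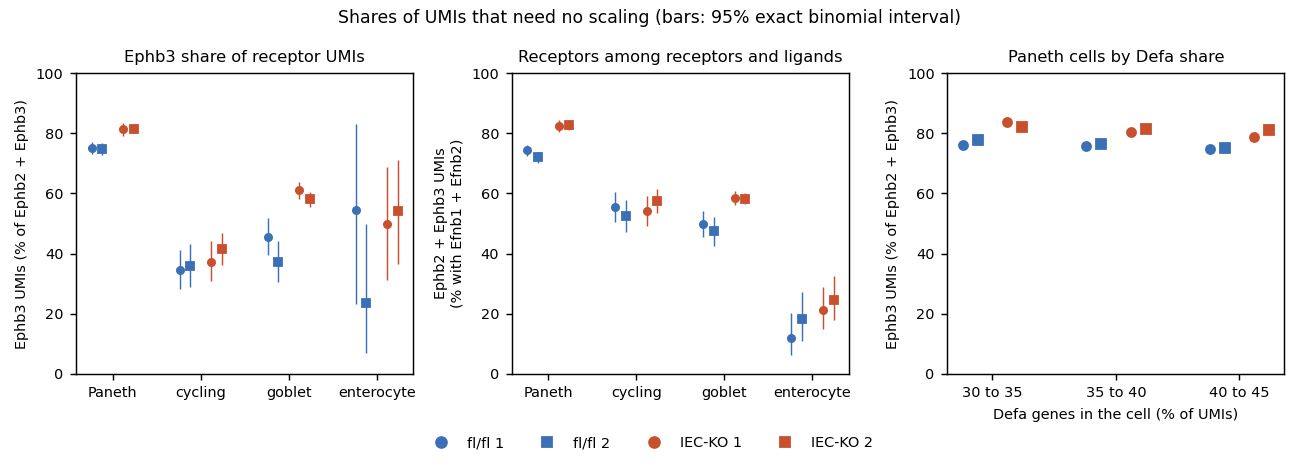
Shares of UMIs in percent, from left to right *Ephb3* among *Ephb2* and *Ephb3*, the receptors *Ephb2* and *Ephb3* among these and *Efnb1* and *Efnb2*, and the first share again in Paneth cells by Defa content. Points are libraries, and bars in the left and middle panels are exact binomial intervals at 95%, which cover counting error only. The right panel has no bars. Paneth cells of IEC-KO sit at 81.3% and 81.6% in the first panel against 75.1% and 74.8% in fl/fl.

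Detection in single cells was compared with every cell thinned to 3843 UMIs, the lowest total of any cell, which left out none. At that depth 7.03% and 6.21% of fl/fl Paneth cells and 12.1% and 13.2% of IEC-KO Paneth cells had an *Ephb3* UMI. Without thinning the shares were 48.3%, 49.2%, 37.5% and 52.0%, and median depths of Paneth cells were 46965, 52851.5, 13782 and 20159 UMIs. Equal total depth still leaves fewer UMIs outside Defa genes to an fl/fl cell. The mean difference was 6.04 percentage points at 3843 UMIs, 4.12 at 1500 UMIs outside Defa genes and −4.02 unthinned. In enterocytes, where the receptor is low, the share at 3843 UMIs was 0.877%, 3.19%, 4.21% and 4.05%, the fl/fl values on 1 and 3 cells. Median depths of enterocytes before thinning were 10288, 11038.5, 5076 and 7213 UMIs. In cycling cells the share at 3843 UMIs was 4.67%, 4.56%, 5.21% and 6.84%. Goblet cells held 4.40%, 4.15%, 7.05% and 7.98%, so that the fl/fl shares were not above those of cycling cells and lay above those of fl/fl enterocytes.

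The B-type ligands were met more often in enterocytes than in Paneth cells. *Efnb2* was met in 12.3%, 10.6%, 12.3% and 11.7% of enterocytes and in 0.495%, 0.513%, 0.545% and 1.16% of Paneth cells. *Efnb1* was met in 12.3%, 11.7%, 15.8% and 11.3% of enterocytes and 1.93%, 2.15%, 2.13% and 2.40% of Paneth cells. *Efna1* was met in 3.10%, 3.32%, 5.40% and 5.70% of goblet cells and 2.33%, 1.95%, 3.67% and 3.85% of Paneth cells. In both classes both IEC-KO libraries lay above both fl/fl libraries, though the *Efna1* rise in Paneth cells did not pass at equal depth. *Ephb2* was met in 7.86%, 6.17%, 8.23% and 8.42% of cycling cells and 2.13%, 1.69%, 3.07% and 3.42% of Paneth cells. Its shares had the same order of genotypes in both classes, though its level passed in neither. Shares at equal total depth carry a shift like that under library size. There the median gene moved by −1.77 in Paneth against cycling cells and by 0.62 between genotypes in Paneth cells. Paneth shares thus stand lower against other classes than the scaled levels do.

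**Figure D4:**
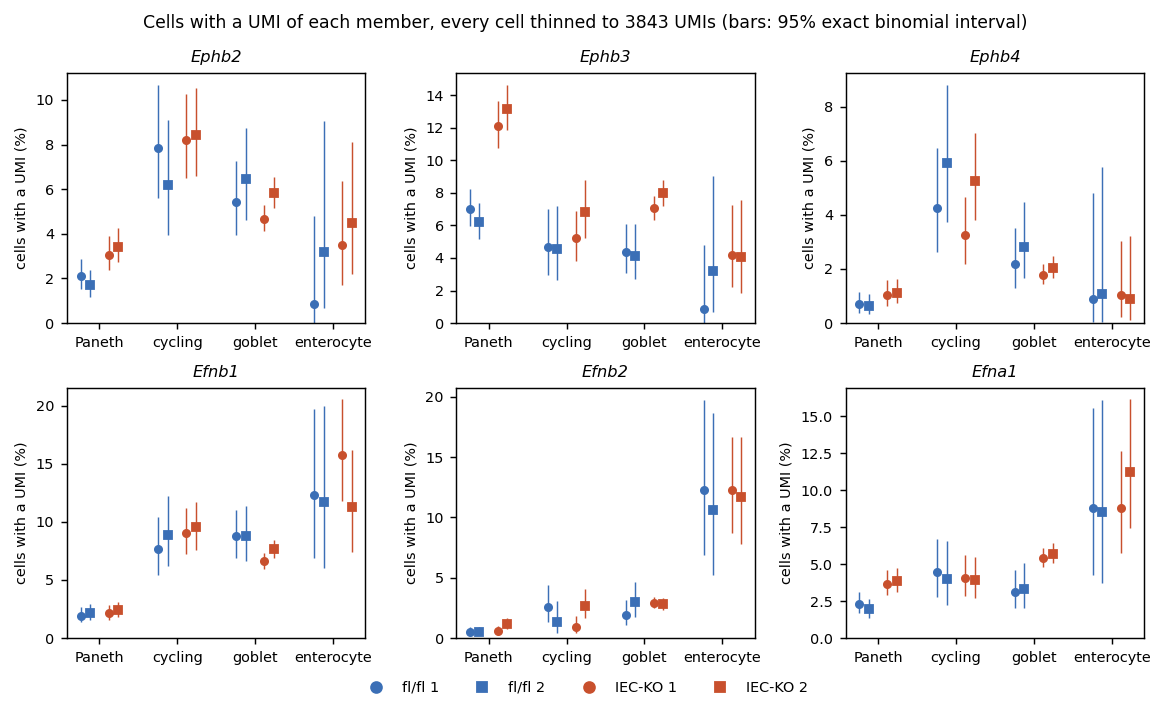
Cells with a UMI of each member (%, linear axis from 0) by class and library after thinning every cell to 3843 UMIs. Points are libraries and bars exact binomial intervals at 95%. *Ephb3* in Paneth cells is at 12.1% and 13.2% in IEC-KO and at 7.03% and 6.21% in fl/fl, while *Efnb2* reaches 10.6% to 12.3% in enterocytes.

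Other genes of the pathway were read from 4 lists, with levels scaled within Paneth cells. Of the 10 other Eph receptors 4 were tested in Paneth cells, and 3 of them fell, where 19.8% of all tested genes did. *Epha4* was at 0.381, 0.384, 0.133 and 0.119 CPM on 30, 31, 5 and 8 UMIs (log2 −1.61, adjusted p = 0.00277). *Epha2* (−1.17, adjusted p = 0.00719) and *Epha1* (−0.65, adjusted p = 0.00917) fell too by edgeR, but none of the 3 passed in DESeq2 (adjusted p = 0.0842, 0.107 and 0.136 for *Epha4*, *Epha2* and *Epha1*). Under library size *Epha4* was at −0.99 (adjusted p = 0.0368), *Epha2* at −0.55 (0.148) and *Epha1* at −0.02 (0.926). The median of the 4 was −0.91, beside a median of −0.00 over all tested genes. Of 5 other ephrins 3 were tested and 0 passed in edgeR. *Efna3* (log2 0.64, SE 0.255, adjusted p = 0.0507) was under 0.05 before adjustment, as were 47.6% of all tested genes. *Epha1* and *Epha2* were higher in enterocytes than in cycling cells (log2 2.15 and 2.57), and *Epha4* was lower (−2.33). These rest on few enterocyte UMIs, 14, 8, 14 and 19 of *Epha1* and 4, 8, 10 and 5 of *Epha2*. *Epha4*, with 0, 1, 1 and 0, was at the floor there.

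Of 41 partners and effectors of Eph signalling, 38 were tested in Paneth cells, 7 rose and 6 fell (34.2%, against 39.9% of all tested genes). *Grb10*, an adaptor that binds receptor tyrosine kinases, went from 0.343 and 0.372 CPM to 4.27 and 4.64 (log2 3.64, adjusted p = 3.02e-13), and rose in goblet cells too (4.45, adjusted p = 3.94e-07). The Src-family kinase gene *Fyn* fell by 0.83 on the log2 scale (adjusted p = 0.000436). *Ngef*, which encodes the exchange factor ephexin-1, fell by 1.08 (adjusted p = 0.00212), though not in DESeq2 (adjusted p = 0.058).

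Of 14 TCF targets of the crypt base, 13 were tested in Paneth cells, 3 rose and 2 fell (38.5%, near the 39.9% of all tested genes). *Sox9*, a transcription factor that Paneth cells need, went from 27.4 and 30.0 CPM to 38.9 and 44.1 (log2 0.54, adjusted p = 4.44e-06). *Znrf3*, which removes Wnt receptors, rose by 0.81 (adjusted p = 0.00108), and the stem cell receptor *Lgr5* rose by 0.39 (adjusted p = 0.00493). The stem cell factor *Ascl2* fell from 2.64 and 3.13 CPM to 1.17 and 1.20 (log2 −1.28, adjusted p = 1.29e-06) and the adhesion receptor *Cd44* fell by 0.79 (adjusted p = 0.0002). Library size turned the sign of none of these 8 genes, but *Cd44* and *Fyn* no longer passed under it (−0.17 and −0.20), nor did *Ngef* (−0.46), and *Fyn* and *Znrf3* did not pass at equal depth (adjusted p = 0.236 and 0.289). *Lgr5* was at 0.06 (adjusted p = 0.899) at equal depth and did not pass in DESeq2 (adjusted p = 0.0794). The list as a whole was lower in enterocytes than in cycling cells, with 12 of 13 tested genes lower and a median of −2.28, where 32.9% of all tested genes were lower and their median was −0.12.

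The genes whose levels ran most like each member over the 16 sums are given as a description, since the points share libraries and classes. Over about 5095 genes, *Ephb3* was nearest to *St6galnac2* (Pearson r = 0.981), *Wnt3* (0.978), the Wnt ligand made by Paneth cells, and *Rnase1* (0.970). *Ephb2* was nearest to *Tmem107*, *Fsd1l* and *Tppp3* (0.951 to 0.961), and *Ephb4* to *Stk39*, *Akip1* and *Cdk6*, a cell cycle kinase (0.944 to 0.952). The ligand *Efnb1* was nearest to *Ostf1*, *Suclg1* and *Txn1* (0.958 to 0.965), *Efnb2* to *Rmdn3*, *Nagk* and *Baiap2l1* (0.962 to 0.965) and *Efna1* to *Pnrc1*, *Pld1* and *Reep6* (0.945 to 0.948). Among the members, *Ephb2* and *Ephb4* ran together (0.93), *Ephb3* ran against *Efnb1* (−0.84) and *Ephb2* against *Efnb2* (−0.80).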

How the data were processed

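Single-cell libraries were made from sorted crypt cells. The authors deposited raw UMI counts per gene and cell barcode after cell calling, made with Cell Ranger 2.1.1 on mm10 per the submitters' processing notes. The deposited counts were used unchanged. No pair of libraries had more than 132 barcodes in common. Doublets were kept. Paneth cells had 30% or more UMIs from 13 Defa symbols. Cells under 20% were taken, at 3843 UMIs, as cycling (4 or more of 19 markers), enterocyte (7 or more of 13) or goblet (160 or more UMIs of 10 markers), and 5.69% to 16.1% of cells had no class. Tuft, enteroendocrine and stem cells were not tested.

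UMIs were summed per library and class, since cells are not replicates, and tested with edgeR 4.0.16 (R 4.3.3; glmQLFit, TMM, filterByExpr, Benjamini-Hochberg adjustment at 0.05). Class contrasts and differences between classes came from 1 fit over 16 sums with library as a block. The SE is the log2 fold change over the square root of F. DESeq2 1.42.0, other scalings, filters, class limits, thinning and left-out libraries were alternatives. The steps were tested on simulated data. Scripts used Python 3.11.15, numpy 2.4.6, scipy 1.17.1, pandas 2.3.3 and scanpy 1.11.5. Positions and promoters are those of RefSeq and GENCODE M21 on GRCm38.

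The members and lists were chosen with earlier results of these data known. Named genes were all members, list genes past the threshold in Paneth cells (at most 8 by adjusted p; *Epha1*, *Epha2* and *Lgr5* were added after their values were seen), and the 3 genes nearest to each member by Pearson correlation (mean CPM of 10 or more). Nothing in the labels says that a replicate number marks shared mice or a day, so no block was used. Deviations of same-numbered libraries had correlations of −0.00249 to 0.0386, which cannot exclude a pairing. Shares carry exact Clopper-Pearson intervals at 95%, for counting error only, except those by Defa content or less carried-over UMIs.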

Additional observations from a re-analysis of the deposited data

Results flagged for a closer look

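Among genes of the pathway lists, though for no member, the change from fl/fl to IEC-KO differed between classes by edgeR's quasi-likelihood test of the difference itself, with Benjamini-Hochberg adjustment over all genes. Values are log2 differences, the Paneth change minus that of the other class, with adjusted p in parentheses.

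Against cycling cells, 3 of 36 partners (8.33%) and 3 of 13 TCF targets (23.1%) passed, where 20.4% of all genes did. The differences were 0.371 (0.00255) for *Sox9*, 0.344 (0.017) for *Rock1* and 0.275 (0.039) for *Pak2*, both kinase genes, all of which rose in Paneth cells and did not pass in cycling cells. For *Lgr5* the difference was 0.841 (0.00511), with a Paneth change of 0.39 and a cycling change of −0.45 that did not pass. *Rasa1*, which encodes a Ras GTPase-activating protein that binds Eph receptors, differed by 0.434 (0.0364), with a change of 0.06 in Paneth and −0.38 in cycling cells, neither past the threshold alone. *Ascl2* differed by −0.827 (0.00296), with changes of −1.28 and −0.47.

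Against goblet cells, 2 of 36 partners (5.56%) and 2 of 13 TCF targets (15.4%) passed, where 12.9% of all genes did. *Prox1*, a transcription factor gene, differed by 0.607 (0.0302) and the cyclin gene *Ccnd1* by 0.379 (0.00396), and both fell in goblet cells (−0.49 and −0.46) without passing in Paneth cells. *Pak2* differed by 0.275 (0.0368). The adaptor gene *Grb7* differed by −0.359 (0.00795), with changes of −0.19 in Paneth and 0.15 in goblet cells. Against enterocytes *Lgr5* differed by 2.92 (0.0411), on 5, 4, 1 and 1 enterocyte UMIs, and did not pass without any 1 of the 4 libraries (adjusted p from 0.129 to 0.245).

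With all cells thinned to equal depth, 2 of these 11 differences passed, that of *Sox9* from cycling cells (0.63, adjusted p = 0.0006) and that of *Grb7* from goblet cells (−0.80, adjusted p = 0.00811). Under scaling by library size *Grb7* turned to 0.32 (adjusted p = 0.0141) and *Ascl2* was at −0.15 (adjusted p = 0.567).
Each of the 11 kept its direction but lost the threshold on leaving out at least 1 library, *Sox9* without fl/fl 2 (0.32, adjusted p = 0.0759), *Ascl2* without IEC-KO 2 (−0.66, adjusted p = 0.152) and *Rasa1* without any 1 of the 4 (adjusted p from 0.089 to 0.291).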

How the results depend on the processing

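Of the single-member values recomputed under the alternatives, 695 counted as unchanged. They kept their side of the threshold or, where untested, moved by no more than the spread between replicates or the SE. A change of direction was counted among these too where neither setting passed. Of the rest 32 moved by more, 20 gained and 22 lost the threshold, and 11 changed sign with a call in at least 1 setting. Counts of members passing were left out of this tally. Under library size alone, 5 members passed in Paneth cells (74% of all genes), with *Efnb1* at 0.38 and *Ephb4* at 0.48. By the same scaling 5 passed in the Paneth difference from cycling cells (*Efnb1* 0.40, *Ephb4* 0.60; 62.3% of all genes), 5 in that from goblet cells (*Efna1* 0.42, *Ephb4* 0.63, *Ephb3* 0.43; 69% of all genes) and 1 in that from enterocytes (34.3% of all genes). Between classes it turned *Efna1* to −0.63 and *Efnb2* to −1.48 in Paneth against cycling cells and *Efnb1* to −0.30 in goblet against cycling cells. The shift of the median gene is part of these changes by construction. At equal depth, on fewer UMIs, 1 member (*Ephb3*) passed in Paneth cells, where 21.8% of all genes did. There 3 passed in Paneth against cycling cells (52.3% of all genes, *Ephb2* turned to 0.0986) and 3 in goblet against cycling cells (48.7% of all genes). With only goblet-low cycling cells, chosen after seeing the data, 3 passed in goblet against cycling cells (64% of all genes). The difference in cells with an *Ephb3* UMI was 4.12 points at 1500 UMIs outside Defa genes and −4.02 unthinned.

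Each fit without 1 library has only 1 library in a genotype, so counts of members passing are not given for those fits. With the replicate number as a block in edgeR, 3 members passed in Paneth cells (40.9% of all genes) and 0 in cycling cells (4.93%). In goblet cells 3 passed (26.4% of all genes), with *Efnb1* at −0.30 (adjusted p = 0.00914), and in enterocytes 0 (2.99%). The labels do not say what the numbers mark. Over all genes, calls in Paneth, cycling, goblet and enterocyte cells were 4990, 523, 2392 and 112 by edgeR, 2953, 144, 1148 and 44 by DESeq2, and 1973, 224, 1288 and 53 at equal depth, and 9249 in Paneth cells by library size. Few UMIs limit the receptors in enterocytes, and *Ephb6* everywhere.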
